A study of Homo sapiens with 9 samples.

Results

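Voltage-gated calcium and sodium channel genes were followed in TYUC-1, a cell line from a neuroendocrine carcinoma of the esophagus, through 6 days of exposure to EPZ-6438. EPZ-6438 inhibits EZH2, the catalytic subunit of Polycomb repressive complex 2, which methylates histone H3 at repressed genes. The members were all rows of the count table named as a calcium channel alpha1, alpha2delta, beta or gamma subunit (CACNA1, CACNA2D, CACNB and CACNG genes), a sodium channel alpha or beta subunit (SCN genes), or the leak channel NALCN. Antisense genes were left out. This gave 41 of the 35762 genes in the table, of which 26 are calcium channel genes and 14 sodium channel genes. The cells were sampled on day 0, day 3 and day 6, with 3 libraries each that the submitters describe as biological replicates. EPZ-6438 is the labelled treatment of each of the 9 libraries, day 0 included. The protocol names 2 uM EPZ-6438 or DMSO, and whether day 0 cells received DMSO is not stated. No vehicle library of day 3 or day 6 was analysed here, so the inhibitor and the days in culture cannot be told apart. The line is a single cell line grown in suspension.

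Voltage-gated calcium channels are built around a pore-forming alpha1 subunit that opens when the membrane depolarises. L-type, P/Q-, N- and R-type channels need beta subunits, which lie in the cytoplasm and help bring the pore to the membrane, and alpha2delta subunits on its outer face. T-type channels open at weaker depolarisation and can work as an alpha1 subunit alone. Sodium channels have one alpha subunit, which carries the action potential, and small single-pass beta subunits that tune it. In neuroendocrine cells calcium entry through such channels triggers the release of hormone granules.

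Levels are CPM, counts scaled to a common library total after TMM scaling between libraries, and 3 counts, the upper limit that a count of 0 allows, came to 0.098 to 0.141 CPM. These limits and all intervals of pooled counts cover counting error only. Libraries held 21638874 to 31235055 estimated counts. Replicate 2 of day 0 stood apart from its group: the chi-square statistic per degree of freedom of its counts was 55.4 against replicate 1 and 47.6 against replicate 3, where those differed by 4.94 and other pairs within a day by 3.53 to 16.2. Of 43 calls made on channel genes in 3 comparisons, 42 held without that library. EZH2 went from 193 ± 3.95 CPM on day 0 to 167 ± 2.34 on day 3, SUZ12 from 173 ± 17.6 to 131 ± 1.12 and EED from 42.2 ± 5.03 to 29.5 ± 0.813. All were called lower (edgeR, adjusted p = 0.0289, 0.00297 and 0.0013), although the EZH2 call was lost in 7 of 17 alternatives (up to 0.177). On day 6 these genes were again called lower than on day 0, and each call was kept in all 17 alternatives. Their log2 fold changes were -0.36, -0.58 and -0.59 (edgeR, adjusted p = 0.00083, 0.000128 and 0.000253). REST, a repressor of neuronal genes that include sodium channels, was at 53.4 ± 1.69, 49.2 ± 2.07 and 51.1 ± 6.34 on the 3 days and did not pass in any comparison (adjusted p = 0.325, 0.569 and 0.768). The granule protein CHGA was at 0 in all 9 libraries. The tuft cell factor POU2F3 was at 285 ± 7.11, 289 ± 5.92 and 227 ± 7.51. As in any bulk measurement, fewer cells with a transcript and less transcript per cell cannot be told apart.

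Of the 41 members 25 had enough counts to be tested, and 16 did not. On day 3, 12 of the 25 were higher than on day 0 and 1 was lower, where 40.6% of all 15345 tested genes were called, 22.5% higher and 18.1% lower. On day 6, 17 were higher than on day 0 and 1 was lower, beside 54.6% of all tested genes called, 28.9% higher and 25.7% lower. Between day 3 and day 6, 12 members rose and none fell (edgeR), beside 16.3% of all tested genes called, 11.5% higher and 4.76% lower. The libraries of the days compared did not overlap for 15, 21 and 16 tested members in the 3 comparisons, and for 53.8%, 58.7% and 43.5% of all tested genes. DESeq2 and limma-voom also gave 0 members lower on day 6 than on day 3, and 1 member was lower there at an unadjusted p under 0.05. The median log2 fold change over the tested members was 0.49 on day 3 and 1.27 on day 6, against 0.015 and 0.013 over all tested genes. Several members had few counts on day 0. Among them were CACNA1H (3, 2 and 2), CACNA2D2 (5, 4 and 7), SCN8A (4, 2 and 5), CACNA2D3 (4, 2 and 5) and SCN4A (12, 5 and 5). These entered the test only through later libraries, so they could hardly be found lower than on day 0. They are among the members counted as higher and enter the medians. The comparisons with day 0 share their day 0 libraries.

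**Figure D1:**
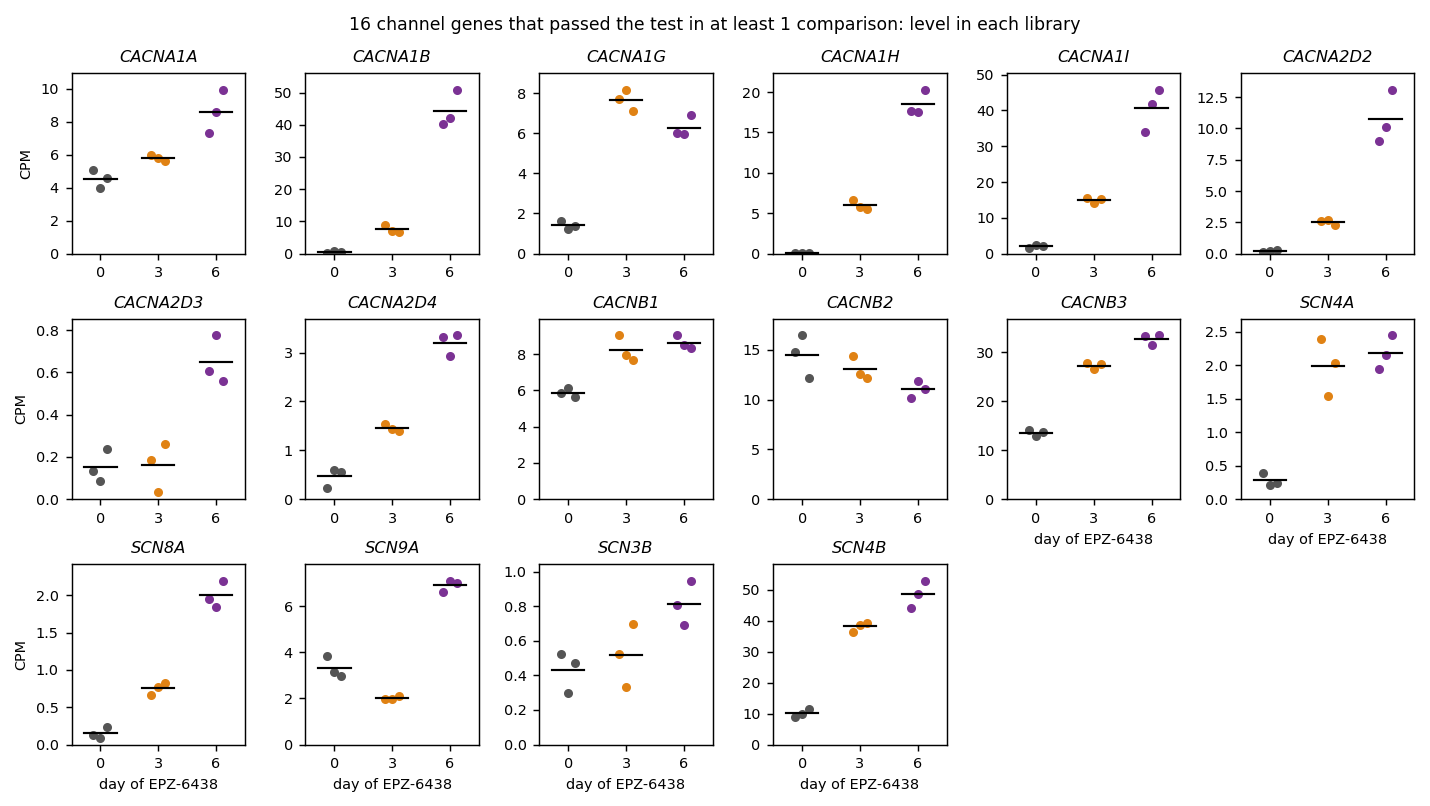
Level (CPM, linear axes from 0) of 16 channel genes that passed the test in at least 1 comparison, by day of EPZ-6438 exposure. Points are the 3 libraries of each day and the black line is their mean. CACNB2 declined, SCN9A was lowest on day 3, and the other 14 genes had their lowest mean on day 0.

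Promoter sequences are shown for 6 members because RefSeq windows with many and with few CG pairs occurred among genes with large rises and among genes without a call. Not all of these windows lie at the 5′ end of the gene. Whether CG content goes with the rises was not tested. CpG-rich starts are a known feature of Polycomb-bound genes. Each window runs from 250 bases before to 50 bases after a RefSeq transcript start (GRCh38.p14), 5′ to 3′ on the strand of the gene, with every CG pair in capitals. CACNA1B lies at chr9:137877532-137877831, CACNA1I at chr22:39570503-39570802 and CACNA1D at chr3:53494361-53494660, all on the plus strand. SCN4B lies at chr11:118145384-118145683, SCN2B at chr11:118176590-118176889 and SCN9A at chr2:166375895-166376194, all on the minus strand.
CACNA1B: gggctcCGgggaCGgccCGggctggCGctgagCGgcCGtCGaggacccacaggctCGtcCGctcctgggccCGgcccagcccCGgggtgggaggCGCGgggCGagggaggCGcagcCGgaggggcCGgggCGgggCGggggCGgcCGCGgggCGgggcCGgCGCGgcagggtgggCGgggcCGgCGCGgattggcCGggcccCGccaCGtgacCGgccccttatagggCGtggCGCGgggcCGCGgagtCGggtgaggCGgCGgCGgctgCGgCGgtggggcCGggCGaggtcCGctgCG
CACNA1I: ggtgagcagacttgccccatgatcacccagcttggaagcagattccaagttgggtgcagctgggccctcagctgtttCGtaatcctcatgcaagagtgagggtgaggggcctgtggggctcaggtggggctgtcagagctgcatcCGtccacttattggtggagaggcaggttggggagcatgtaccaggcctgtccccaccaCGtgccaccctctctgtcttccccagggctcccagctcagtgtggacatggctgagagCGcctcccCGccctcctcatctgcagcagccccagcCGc
CACNA1D: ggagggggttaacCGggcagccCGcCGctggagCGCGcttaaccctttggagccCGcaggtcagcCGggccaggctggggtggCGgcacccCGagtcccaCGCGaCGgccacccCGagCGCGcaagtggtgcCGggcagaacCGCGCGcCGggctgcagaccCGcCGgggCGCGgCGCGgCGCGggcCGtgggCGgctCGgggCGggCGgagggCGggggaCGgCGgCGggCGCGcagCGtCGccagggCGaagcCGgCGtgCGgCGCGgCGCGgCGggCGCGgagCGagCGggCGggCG
SCN4B: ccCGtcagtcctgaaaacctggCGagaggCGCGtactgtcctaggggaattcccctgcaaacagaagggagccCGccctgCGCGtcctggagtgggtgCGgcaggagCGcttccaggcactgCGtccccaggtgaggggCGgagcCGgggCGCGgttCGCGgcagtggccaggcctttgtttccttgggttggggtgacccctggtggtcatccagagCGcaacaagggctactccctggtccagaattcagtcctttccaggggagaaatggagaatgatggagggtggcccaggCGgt
SCN2B: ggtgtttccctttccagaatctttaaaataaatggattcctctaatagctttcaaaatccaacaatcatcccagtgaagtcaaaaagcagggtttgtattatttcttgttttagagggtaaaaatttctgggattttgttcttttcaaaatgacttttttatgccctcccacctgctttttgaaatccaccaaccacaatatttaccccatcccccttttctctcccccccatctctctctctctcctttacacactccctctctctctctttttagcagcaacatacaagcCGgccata
SCN9A: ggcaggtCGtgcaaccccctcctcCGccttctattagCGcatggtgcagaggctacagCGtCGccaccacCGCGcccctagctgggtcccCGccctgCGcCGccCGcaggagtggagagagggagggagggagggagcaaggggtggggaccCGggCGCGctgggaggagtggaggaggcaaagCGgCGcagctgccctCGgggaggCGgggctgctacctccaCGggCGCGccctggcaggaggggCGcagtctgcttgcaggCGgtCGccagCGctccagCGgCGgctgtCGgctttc

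The windows of CACNA1B and CACNA1I, both many-fold higher on day 6, held 49 and 6 CG pairs. That of CACNA1D, which was not called, held 56. SCN4B, which rose, had 18 and its neighbour SCN2B, which did not pass, had 1, while SCN9A had 28. The windows of SCN4B and CACNA1D lie inside the annotated genes, whose 5′ ends are at 118152888 and 53328963. They therefore describe internal starts and not the 5′ ends of these genes. In the CACNA1I window the annotated transcript start falls on the letters atg, as the start of a coding sequence would. Whether its RNA begins there was not tested, so its 6 pairs may not describe a promoter. Over the 35116 windows of all genes the median was 14 CG pairs, and 32.0% held at least 25. RefSeq windows were matched for 27 members, with 41 windows in all since 8 members have several. A window with at least 25 CG pairs was found for 7 of 10 members called higher on day 6, for 2 of 5 tested members not called, for 4 of 11 untested members and for CACNB2, the 1 member called lower, which has several windows with 7 to 38 pairs. These count members with any such window, so they are not comparable with the 32.0% of single windows. The GC box GGGCGG, searched on both strands and overlapping CG pairs, was in 23 of the 41 windows (56.1%) and in 45.0% of all windows. TATAAA, also searched on both strands, was in 2 of the 41 (4.88%) and in 11.5% of all. These matches describe the sequence and do not show that a factor binds there.

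Pore-forming subunits of the presynaptic calcium channels were called higher on day 6 than on day 0 in both tested cases, beside 28.9% of all tested genes. CACNA1B, the pore of the N-type channel that drives transmitter and hormone release (chromosome 9, 137877789 to 138124624), was at 0.327, 0.723 and 0.423 CPM in the day 0 libraries. It was at 8.91, 7.06 and 6.65 on day 3 and at 40.1, 42.2 and 50.9 on day 6. The 3 days did not overlap at either step. Its log2 fold change from day 0 was 3.96 on day 3 (SE 0.24, adjusted p = 6.18e-07) and 6.52 on day 6 (SE 0.22, adjusted p = 1.31e-09). Pooled counts went from 36 to 603 and 3353, a day 6 level 92.2-fold that of day 0 (95% interval 66.5 to 132). Only 16.1% of the rise between day 0 and day 6 in mean CPM had been reached on day 3. The further rise after day 3 was 2.55 on the log2 scale (SE 0.15, adjusted p = 5.81e-07).

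CACNA1A, the pore of the P/Q-type channel (chromosome 19, 13206442 to 13633025), changed less. Its libraries stood at 5.06, 4.0 and 4.56 CPM on day 0, 6.0, 5.79 and 5.65 on day 3, and 7.3, 8.58 and 9.95 on day 6. The days did not overlap, but day 3 against day 0 did not pass (log2 fold change 0.35, SE 0.14, adjusted p = 0.0677). It passed with library size only (0.0435), with the 5 CPM filter on mean levels (0.0441) and without replicate 1 of day 0 (0.0478), in a range up to 0.161. By day 6 the gene had risen by 0.91 on the log2 scale (SE 0.14, adjusted p = 0.00018). The step from day 3 to day 6 was 0.56 (SE 0.14, adjusted p = 0.0142), and that call was lost without replicate 2 (0.0588) or 3 (0.0601) of day 3 or replicate 3 of day 6 (0.0672). CACNA1E, the R-type pore, was too low to be tested, with 0, 15 and 19 pooled counts on the 3 days, at least 4.73-fold higher on day 3 and at least 6.27-fold on day 6 against a floor of 3 counts over the day 0 group.

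Each of the 3 T-type pore genes was above its day 0 level at both later times. CACNA1H (chromosome 16, 1153121 to 1221772) had 3, 2 and 2 counts in the day 0 libraries, 177, 174 and 126 on day 3, and 527, 406 and 472 on day 6. In CPM the day 3 libraries lay between 5.48 and 6.6 and those of day 6 between 17.5 and 20.3. The pooled ratio of day 6 to day 0 was 199 (95% interval 96.2 to 495), the highest among the members with a ratio. From day 3 to day 6 CACNA1H rose by 1.63 on the log2 scale (SE 0.11, adjusted p = 1.68e-06). The 1 gene annotated on the other strand of its exons that has a row in the table, TPSG1, was at 0, 0.0124 and 0.0368 CPM on the 3 days.

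CACNA1I, a T-type pore best known from brain (chromosome 22, 39570753 to 39689737), was already counted on day 0, at 1.6, 2.34 and 2.26 CPM. It reached 15.6, 14.0 and 15.3 on day 3 and 33.9, 41.9 and 45.8 on day 6. Its log2 fold change was 2.88 on day 3 (SE 0.16, adjusted p = 4.46e-07) and 4.31 on day 6 (SE 0.16, adjusted p = 2.29e-09). CACNA1G, the third T-type pore (chromosome 17, 50561068 to 50627474), had another course. It was at 1.63, 1.23 and 1.36 on day 0, 7.68, 8.17 and 7.13 on day 3, and 5.99, 5.95 and 6.89 on day 6. It rose by 2.43 on the log2 scale by day 3 (SE 0.15, adjusted p = 6.35e-07). All day 6 libraries lay below all those of day 3, without passing the test (log2 fold change -0.29, SE 0.13, adjusted p = 0.157). Summed over the 3 T-type genes the level was 3.57 ± 0.207 CPM on day 0, 28.6 ± 1.13 on day 3 and 65.3 ± 7.7 on day 6 (SD, n = 3).

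L-type pore genes stayed low. CACNA1D, the L-type pore of neuroendocrine and sensory cells, was the 1 of 4 that could be tested, and its libraries ranged from 0.468 to 0.719 CPM on day 0, 0.609 to 0.932 on day 3 and 0.471 to 0.819 on day 6. The days overlapped and no comparison passed (adjusted p = 0.321, 0.746 and 0.625). CHDH, which shares exon bases with CACNA1D on the other strand, was at 43.4, 45.4 and 35.7 CPM. Whether its reads enter the CACNA1D count was not tested. CACNA1C, the pore of heart and smooth muscle, had 2, 6 and 31 pooled counts, and day 6 was 15.3-fold day 0 (95% interval 3.9 to 132). CACNA1F, of the retina, had 7, 8 and 12, and CACNA1S, of skeletal muscle, had 3, 10 and 7. The summed L-type level was 0.774 ± 0.0646, 1.09 ± 0.342 and 1.32 ± 0.217 CPM, beside 5.03 ± 0.337, 13.5 ± 1.45 and 53.3 ± 6.97 for the P/Q-, N- and R-type genes.

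**Figure D2:**
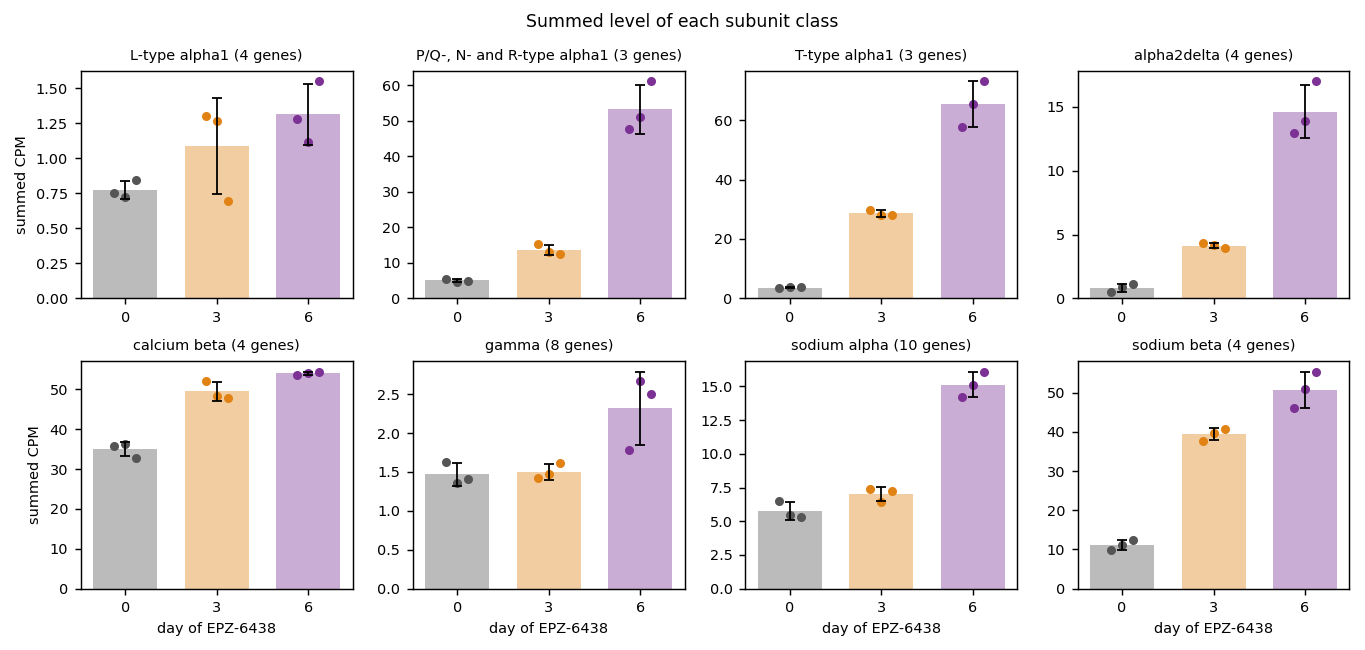
Summed level (CPM, linear axes from 0) of the members of each subunit class on day 0, day 3 and day 6, with bars for the mean, whiskers for the SD and points for the 3 libraries of each day. T-type pores went from 3.57 to 65.3 and sodium channel beta subunits from 11.1 to 50.8, while L-type pores and gamma subunits did not exceed 2.67 in any library.

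Among the alpha2delta subunits, CACNA2D2 rose most in CPM. Its libraries held 0.163, 0.17 and 0.329 CPM on day 0, 2.61, 2.71 and 2.26 on day 3, and 9.01, 10.1 and 13.1 on day 6. The change was 3.54 on the log2 scale on day 3 (SE 0.29, adjusted p = 4.79e-06) and 5.62 on day 6 (SE 0.26, adjusted p = 1.21e-08). CYB561D2, which shares exon bases with it on the other strand, was at 6.33, 7.56 and 9.67 CPM. Whether reads of that gene enter the CACNA2D2 count was not tested.

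CACNA2D4, best known from the retina, was at 0.229, 0.595 and 0.564 CPM on day 0, 1.53, 1.44 and 1.39 on day 3, and 3.33, 2.93 and 3.36 on day 6. It rose by 1.69 on the log2 scale by day 3 (SE 0.30, adjusted p = 0.00113) and by 2.83 by day 6 (SE 0.29, adjusted p = 7.2e-06). CACNA2D3 moved late: its libraries held 4, 2 and 5 counts on day 0, 5, 1 and 6 on day 3, and 18, 18 and 13 on day 6. Its day 6 level passed against day 0 (log2 fold change 2.10, SE 0.52, adjusted p = 0.00489). Against day 3 it passed as well (adjusted p = 0.0168), but not without replicate 1 (0.0501) or replicate 2 (0.0709) of day 3 or replicate 2 of day 6 (0.0718). CACNA2D1 had 0, 0 and 4 pooled counts and was not tested.

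On day 0 the highest levels per length among calcium channel genes were those of CACNB3, CACNB2 and CACNB1, while the fourth beta gene, CACNB4, was lower. CACNB3, a beta subunit of N-type and other neuronal channels (chromosome 12, 48813794 to 48828941), went from 14.2, 12.9 and 13.7 CPM on day 0 to 27.7, 26.6 and 27.5 on day 3 and 33.3, 31.5 and 33.5 on day 6. Its log2 fold change was 1.00 on day 3 (SE 0.08, adjusted p = 2.62e-06) and 1.27 on day 6 (SE 0.08, adjusted p = 9.15e-08). The step from day 3 to day 6 was 0.26 (SE 0.07, adjusted p = 0.0274). That call was lost in 6 of 17 alternatives, namely without a filter (0.0824), without each day 3 library (0.0803 to 0.132) and without replicate 1 (0.0998) or 3 (0.0831) of day 6.

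CACNB1, the beta subunit of skeletal muscle that is also made elsewhere, was at 5.88, 6.12 and 5.64 CPM on day 0, 9.06, 7.96 and 7.7 on day 3, and 9.05, 8.53 and 8.36 on day 6. It rose by 0.49 on the log2 scale by day 3 (SE 0.11, adjusted p = 0.00383), and 85.3% of its day 6 rise had been reached then. CACNB2, the main beta subunit of heart, was the only tested member called lower on day 6 than on day 0. Its libraries held 14.8, 16.5 and 12.2 CPM on day 0, 14.4, 12.6 and 12.2 on day 3, and 10.2, 11.9 and 11.1 on day 6. The day 6 change was -0.40 (SE 0.12, adjusted p = 0.0158), and it did not pass with library size only (0.0701) or without replicate 1 of day 6 (0.0629). CACNB4, a beta subunit of brain, did not pass in any comparison, at 1.09 ± 0.259, 0.903 ± 0.3 and 1.59 ± 0.646 CPM (adjusted p = 0.632, 0.213 and 0.169). AC068547.1, which shares exon bases with it on the same strand, was at 4.23, 5.17 and 6.76 CPM. How reads were split between CACNB4 and that gene was not tested.

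Of the 8 gamma subunit genes 6 had too few counts to be tested. CACNG1, the gamma subunit of skeletal muscle, had no count in any library. CACNG2 and CACNG8, which encode partners of AMPA-type glutamate receptors, were the 2 of 8 tested. CACNG2 was at 0.434 ± 0.114, 0.318 ± 0.0668 and 0.454 ± 0.13 CPM, and CACNG8 at 0.959 ± 0.193, 1.04 ± 0.0639 and 1.45 ± 0.428. Neither passed in any comparison, apart from CACNG8 on day 6 against day 0 without replicate 1 of day 6 (adjusted p = 0.0417, against 0.0972 with it). CACNG6 had 0, 1 and 18 pooled counts and was at least 5.94-fold higher on day 6 than a floor of 3 counts over day 0. CACNG7 had 0, 2 and 7, CACNG3 had 6, 4 and 4, CACNG4 had 0, 3 and 1, and CACNG5 had 0, 1 and 1.

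Of 10 sodium channel alpha subunit genes 6 were tested. On day 6, 4 of them were higher than on day 0, beside 28.9% of all tested genes. SCN8A, a main sodium channel pore of central neurons (chromosome 12, 51590266 to 51812864), was at 0.131, 0.0851 and 0.235 CPM on day 0, 0.671, 0.77 and 0.826 on day 3, and 1.95, 1.85 and 2.2 on day 6. Its log2 fold change was 2.33 on day 3 (SE 0.36, adjusted p = 0.000462) and 3.73 on day 6 (SE 0.33, adjusted p = 2.42e-06).

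SCN4A, the skeletal muscle pore, was at 0.392, 0.213 and 0.235 CPM on day 0, 2.39, 1.54 and 2.04 on day 3, and 1.95, 2.16 and 2.45 on day 6. It rose by 2.76 on the log2 scale by day 3 (SE 0.30, adjusted p = 4.1e-05), and its day 3 and day 6 libraries overlapped (adjusted p = 0.766). The 8 muscle markers summed to 1.27 to 3.45 CPM on day 0, 4.28 to 5.41 on day 3 and 5.22 to 6.89 on day 6. Of these RYR1 was at 0.0706 ± 0.0332, 0.855 ± 0.22 and 1.88 ± 0.735, TNNT2 at 0.32 ± 0.192, 0.647 ± 0.267 and 1.15 ± 0.106, and ACTN2 at 1.23 ± 0.924, 1.32 ± 0.062 and 1.54 ± 0.249. DES was at 0, 0.147 ± 0.134 and 0.556 ± 0.0494, MYH7 at 0.0157 ± 0.0271, 0.729 ± 0.178 and 0.2 ± 0.132, and MYH6 at 0, 0.183 ± 0.0803 and 0.0224 ± 0.0388. MYOG was at 0.94 ± 0.155, 0.94 ± 0.237 and 0.866 ± 0.308, and CKM was at 0 on day 0 and day 3 with 2 pooled counts on day 6. The 4 neuronal markers summed to 11.5 to 16.2, 11.2 to 11.4 and 11.3 to 12.9, nearly all of it SYT1, with SNAP25 and STMN2 at 0 on day 0. The 4 fibroblast markers summed to 0.638 to 1.24, 3.81 to 5.14 and 9.38 to 11.4, most of it COL1A1 on the later days. Their part in the channel results was not tested.

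SCN9A, the sodium channel pore of pain-sensing neurons (chromosome 2, 166195185 to 166376001), moved both ways. Its libraries held 3.82, 3.15 and 2.96 CPM on day 0, 1.98, 1.97 and 2.09 on day 3, and 6.63, 7.11 and 7.02 on day 6. No libraries overlapped between days. It fell by 0.73 on the log2 scale from day 0 to day 3 (SE 0.15, adjusted p = 0.00268) and then rose by 1.78 (SE 0.14, adjusted p = 5.75e-06). The net change from day 0 to day 6 was 1.05 (SE 0.14, adjusted p = 5.21e-05). SCN9A was the only member called lower on day 3 than on day 0.

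SCN2A, a pore of central neurons, was at 1.19 ± 0.228, 1.11 ± 0.245 and 1.64 ± 0.0441 CPM, and all day 6 libraries lay above those of both earlier days without passing (adjusted p = 0.133 and 0.141). SCN1A, another neuronal pore, was at 0.465 ± 0.00688, 0.263 ± 0.0039 and 0.3 ± 0.116, below day 0 in all 6 later libraries, and did not pass either (adjusted p = 0.106 and 0.156). SCN3A, the fetal brain pore, had 3 pooled counts, all on day 6. SCN7A had 9, 10 and 21 and SCN11A had 8, 17 and 10, while SCN10A, like SCN11A a gene of sensory neurons, had no count. These alpha genes resemble each other in sequence, so counts at this level can be split between them by the authors' estimation.

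Of the 4 sodium channel beta genes SCN4B was by far the most abundant. It encodes a single-pass subunit first known from brain and heart (chromosome 11, 118133377 to 118152888). SCN4B went from 8.85, 9.95 and 11.5 CPM on day 0 to 36.4, 38.7 and 39.3 on day 3 and 44.2, 48.7 and 52.9 on day 6. The day 3 change was 1.92 on the log2 scale (SE 0.11, adjusted p = 4.46e-07) and the day 6 change 2.27 (SE 0.11, adjusted p = 1.3e-08). By day 3 the gene had reached 72.7% of its day 6 rise. The later step of 0.35 (SE 0.10, adjusted p = 0.0278) was lost without any day 3 library or without replicate 2 or 3 of day 6 (0.0749 to 0.123).

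SCN3B went from 0.523, 0.298 and 0.47 CPM on day 0 to 0.807, 0.69 and 0.948 on day 6 (adjusted p = 0.0457 for a log2 fold change of 0.90, SE 0.35). That call was lost in 10 of 16 alternatives, namely without a filter (0.0845), with DESeq2 (0.109) and without any library other than replicate 2 of day 3 (0.0515 to 0.142). SCN2B was at 0.278 ± 0.173, 0.269 ± 0.14 and 0.617 ± 0.133. All its day 6 libraries lay above those of day 0 (adjusted p = 0.0604), and this passed without replicate 2 of day 0 (0.012), with library size only (0.0425) and with limma-voom (0.0394).

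NALCN, a sodium leak channel that sets resting potential, had 8, 5 and 10 pooled counts and was not tested. Of its partners UNC80, a large scaffold, was at 5.67 ± 0.529, 4.55 ± 0.541 and 4.64 ± 0.581 CPM and did not pass (adjusted p = 0.0993 on day 3, or 0.0469 without replicate 2 of day 0). Of the 16 untested members 14 had fewer than 10 counts in every library, and CACNA1C, at 14 counts in a single library, had the highest count. Tested without a filter, CACNA1E was higher on day 3 (adjusted p = 0.00453) and on day 6 (0.00105) than on day 0. The same fit called CACNA1C (0.0036), CACNG6 (0.00285) and CACNG7 (0.0469) higher on day 6 than on day 0, each from few counts.

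**Figure D3:**
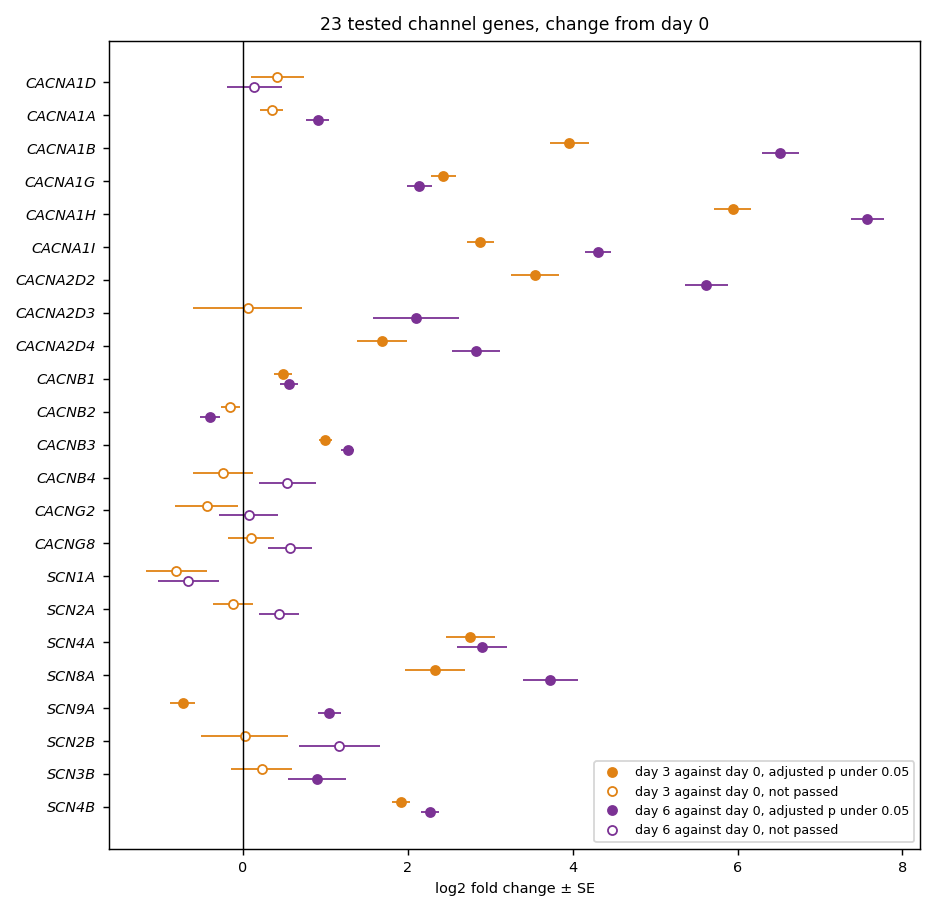
Log2 fold change from day 0 (x axis, whiskers are the SE) of 23 tested channel genes, grouped by subunit class, for day 3 (orange) and day 6 (purple). Filled points passed at an adjusted p under 0.05: 12 on day 3 and 16 on day 6, with CACNA1H furthest at 7.57.

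Rises differed in timing. Members higher on day 3 than on day 0 and higher again on day 6 than on day 3 numbered 9. The share of all tested genes with both calls was not computed, so this number has no background. Among the 9 are CACNB3 and SCN4B, whose later steps were lost in 6 and 5 of 17 alternatives. In CACNA1B, CACNA2D2, CACNA1H, SCN8A and CACNA1I between 16.1% and 33.5% of the day 6 rise in mean CPM had been reached on day 3. The value was 36.1% in CACNA2D4 and 31.3% in CACNA1A. SCN4A (89.7%), CACNB1 (85.3%), SCN4B (72.7%) and CACNB3 (71.4%) had most of it by then, and CACNA1G (128%) exceeded it. These shares describe means of 3 libraries and were not compared by a test.

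Levels can be set side by side only per length, so mean CPM was divided by the longest protein-coding transcript of each gene in kilobases. On this scale the level on day 0 was highest for CACNB3 (5.04 ± 0.243 CPM per kb), CACNB2 (2.47 ± 0.368), SCN4B (2.25 ± 0.294) and CACNB1 (1.57 ± 0.0644). The next was a pore gene, CACNA1A, at 0.524 ± 0.0615. On day 6 CACNB3 (12.1 ± 0.412) and SCN4B (10.8 ± 0.971) led, followed by the pore genes CACNA1B (4.54 ± 0.586) and CACNA1I (4.05 ± 0.605). CACNA1B had moved from place 17 to place 3 and CACNA1H from place 30 to place 6 of 41, while CACNB2 went from 2 to 8. Which transcripts these cells make was not measured, and with the median coding transcript length CACNB2 was 3rd, CACNA1B 5th and CACNA1H 7th on day 6, and SCN4B (19.3 CPM per kb) preceded CACNB3 (18.0).

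**Figure D4:**
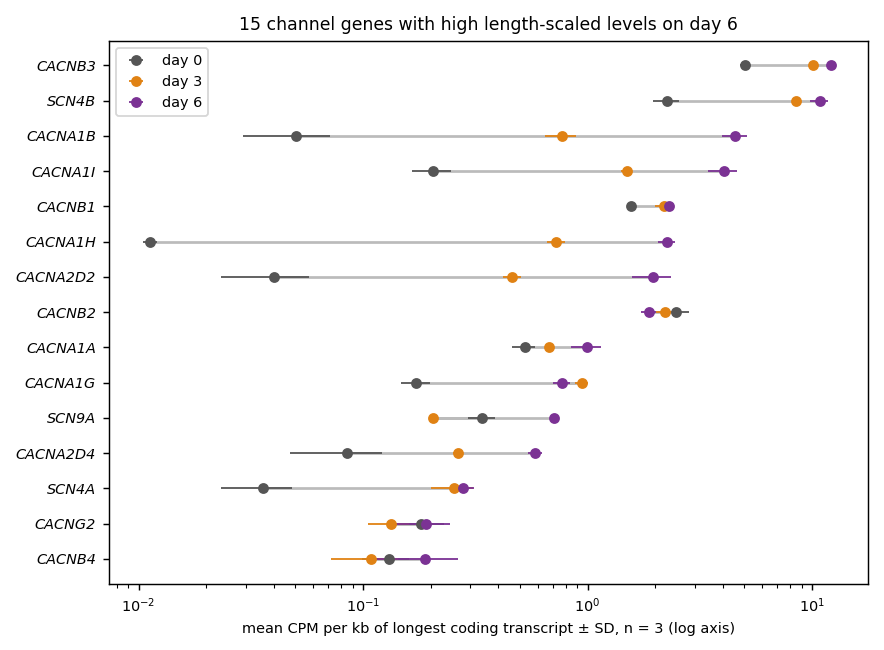
Mean level per kilobase of the longest protein-coding transcript (x axis, log scale, CPM per kb) of 15 channel genes with high values on day 6, with whiskers for the SD over n = 3 libraries and colours for the day. CACNB3, SCN4B, CACNB1 and CACNB2 start above 1 on day 0, and CACNA1B, CACNA1I, CACNA1H and CACNA2D2 pass 1 only on day 6 or, for CACNA1I, on day 3.

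Members that lie next to each other in the genome did not all share a call. SCN4B and SCN2B are 9.06 kb apart on chromosome 11, and the first rose while the second did not pass. On chromosome 2 SCN3A, SCN2A, SCN1A, SCN9A and SCN7A lie in 1 cluster with SCN3A and SCN2A overlapping. SCN9A was the 1 with a call, while SCN3A and SCN7A were not tested. CACNA2D4 and CACNA1C are 52.0 kb apart on chromosome 12. CACNA2D4 rose, and CACNA1C, too low to be tested, went the same way, from 2 to 31 pooled counts. On chromosome 19 CACNG7, CACNG8 and CACNG6 follow each other within 19.1 kb or less, and of these CACNG8 alone was tested. Their day 6 means were 0.0942, 1.45 and 0.233 CPM. Differences between neighbours were not tested. Exons of 16 of the 41 members overlap a gene on the other strand in GENCODE release 29, and without strand information those reads cannot be told apart.

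Genes that bind or regulate these channels were taken from a list of 39 genes in the table, of which 25 were tested. On day 3, 9 were higher and 1 lower than on day 0, beside 22.5% and 18.1% of all tested genes. On day 6, 11 were higher and 4 lower than on day 0, beside 28.9% and 25.7% of all tested genes. Between day 3 and day 6, 4 rose and 2 fell, beside 11.5% and 4.76% of all tested genes. The median log2 fold change of the list was 0.24 on day 3 and 0.33 on day 6, against 0.015 and 0.013 over all tested genes. CABP1, a calcium-binding regulator of calcium channels, went from 12.4, 14.2 and 13.9 CPM on day 0 to 26.6, 26.8 and 26.6 on day 3 and 35.0, 40.1 and 43.5 on day 6 (log2 fold change on day 6 of 1.55, SE 0.10, adjusted p = 1.15e-07).

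FAM155B, an auxiliary subunit of the NALCN complex, had 2, 39 and 160 pooled counts, and day 6 was 79.2-fold day 0 (95% interval 21.6 to 660, edgeR adjusted p = 1.87e-06). RIMBP2, a presynaptic scaffold that ties calcium channels to release sites, had 7, 34 and 151, a ratio of 21.4 (10.1 to 54.0, adjusted p = 9.42e-06). CACHD1, a relative of the alpha2delta subunits, rose from 33.1 ± 2.47 to 42.5 ± 1.71 on day 3 and then fell to 27.7 ± 2.14. Its fall from day 3 to day 6 was -0.62 on the log2 scale (SE 0.08, adjusted p = 0.000331), while its lower level on day 6 than on day 0 (0.0238) was lost in 7 of 17 alternatives (up to 0.234).

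CATSPER3, of the sperm calcium channel family, went from 1.04 ± 0.199 and 1.19 ± 0.212 to 0.525 ± 0.135 CPM (adjusted p = 0.016 against day 0). It lost that call without replicate 3 of day 0 (0.0574) or replicate 1 of day 6 (0.0706), and its call against day 3 (0.0172) without replicate 2 (0.0629) or 3 (0.0756) of day 3 or replicate 1 of day 6 (0.0801). FGF13, an intracellular FGF that binds sodium channels, was at 18.1 ± 1.71 on day 0 and 14.5 ± 1.71 on day 3 with overlapping libraries (adjusted p = 0.0369), and lost the call in 7 of 17 alternatives (up to 0.129). GPD1L, an enzyme-like regulator of sodium current, was at 51.9 ± 0.873 on day 3 and 46.2 ± 1.38 on day 6 and did not pass (adjusted p = 0.143).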

How the data were processed

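RNA was extracted with TRIzol and sequenced from poly-A TruSeq libraries, per the labels' protocols. The authors deposited estimated counts, whole numbers per gene symbol that are not scaled to a common total. Kallisto 0.44.0, bcl2fastq 2.19 and DESeq2 are listed in the submitters' processing notes, as are hg38, GRCh38 and GRCm38, with no roles. The summing of transcripts and the use of strand are not given in the sources used here. The deposited expected counts were rounded, kept by filterByExpr (minimum count 10, 15345 genes), scaled by TMM and tested with the quasi-likelihood test of edgeR 4.0.16 (R 4.3.3), with all 9 libraries in 1 fit and Benjamini-Hochberg adjustment over all tested genes (threshold 0.05). Counts were not changed otherwise, and the fit was tested on simulated data. P-values measure the spread between these libraries. For rare genes the counts of 3 libraries were pooled, with exact 95% intervals for the ratio of 2 Poisson counts. Coordinates are from GENCODE release 29 (GRCh38, 1-based), where all 41 symbols matched, and promoter windows from RefSeq. The alternatives were median-ratio scaling, library size only, no filter, a filter on mean levels at 5 CPM, limma-voom (limma 3.58.1), DESeq2 1.42.0, a replicate block, a fit restricted to 2 days, and each library left out in turn. All members enter the counts, some members, partners and markers are not reported here by name, and of the partner list the 3 with the lowest p in each direction were otherwise named. The members and lists were chosen with earlier results of these data known.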

Additional observations from a re-analysis of the deposited data

Results flagged for a closer look

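SCN9A changed in opposite directions from day 0 at the later days, lower on day 3 in all 3 libraries and higher on day 6 in all 3. The difference between these changes, which is the comparison of day 6 with day 3, was 1.78 on the log2 scale (SE 0.14, edgeR adjusted p = 5.75e-06), and it kept its call in all 16 alternatives that gave a value, with adjusted p from 1.31e-17 to 0.000122. No other tested channel gene combined opposite signs against day 0 with a call between day 3 and day 6.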

How the results depend on the processing

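No call on a channel gene changed direction in any of the 17 alternatives. Of the 43 calls in the 3 comparisons, 35 were kept in every alternative that gave a value, and 8 were lost in at least 1. Those of CACNA1A, CACNA2D3, CACNB3 and SCN4B on day 6 against day 3 and of CACNB2 and SCN3B on day 6 against day 0 are given with their values beside the genes. With the filter at a mean level of 5 CPM only 9 members could be tested, and the members higher were 8 on day 6 against day 0 and 6 on day 6 against day 3, with 0 lower on day 3, because fewer genes were tested. With library size only 0 members were lower on day 6 than on day 0, since CACNB2 missed the threshold. Leaving out each library gave 11 to 12 members higher and 1 lower on day 3, 16 to 18 higher and 0 to 1 lower on day 6 against day 0, and 7 to 13 higher and 0 lower on day 6 against day 3. The lowest, 7, was without replicate 2 of day 3. Without replicate 2 of day 0, the library that stood apart, SCN3B lost its call on day 6 (adjusted p = 0.142) and SCN2B gained one. With the replicate number as a block the counts were 12, 17 and 12 higher and 1, 1 and 0 lower, and all 43 calls were kept. Libraries with the same number did not deviate together (correlations from -0.142 to 0.142 over 13338 genes). With 3 libraries per day this cannot decide whether the numbers pair them, and the labels do not state it. Partner genes lower numbered 1, 4 and 2 in the 3 comparisons, with ranges of 0 to 2, 0 to 4 and 1 to 3, and those higher on day 6 than on day 3 numbered 4, with a range of 2 to 8. Over all genes those lower on day 3 than on day 0 numbered 2780, against 1825 with library size only and 1846 without replicate 1 of day 3. Those higher on day 6 than on day 3 numbered 1766, against 826 with the 5 CPM filter. Those lower there numbered 731 and ranged from 348 to 2090, the highest without replicate 2 of day 0 and the next, 1824, in the fit of the 2 days. Depth limits the members under 10 counts a library, whose differences were not detectable at this depth unless given.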
